A study of Mus musculus with 6 samples.

Results

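The genes described here copy chromosomal DNA and supply its building blocks. The set holds 44 of the 38924 genes in the count files, and each symbol matched 1 Ensembl identifier. They were listed by their known function, with no measured value in the rule, but with earlier results of these data known. The gene lists compared with them below were also chosen with those results known. The genes of the set are described by complex: the origin recognition complex, the helicase loaders with geminin, the MCM2-7 helicase, its CMG partners, the sliding clamp and its loader, polymerase alpha-primase, polymerases delta and epsilon, replication protein A, the enzymes of Okazaki fragment maturation, and the enzymes of nucleotide supply. Their RNA was measured by RNA-seq in anterior nasal septum cartilage (the midline support of the nose) that was laser-captured from C57BL/6 mouse embryos at embryonic day 14.5. The comparison was between 3 WT mice and 3 Apert mice labelled Fgfr2+/S252W; EIIA-Cre, with 1 library per mouse. Apert mice are heterozygous for a gain-of-function substitution of fibroblast growth factor receptor 2 and model Apert syndrome, a disorder of skull and face growth. EIIA-Cre is active broadly in the early embryo, so the mutation is not limited to cartilage, and the labels name no Cre in the WT mice.

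Replication begins when the origin recognition complex marks DNA in G1 phase and CDC6 and CDT1 load the ring-shaped MCM2-7 helicase onto it, a step called licensing that geminin blocks later in the cycle. In S phase CDC45 and the GINS complex join MCM2-7 to form the active CMG helicase, polymerase alpha-primase starts each strand, and polymerases epsilon and delta extend the strands with the PCNA clamp. Transcription of many of these genes is raised in late G1 and S phase by E2F factors, whereas genes of mitosis are raised later through a different promoter element, the CHR. Chondrocytes of embryonic cartilage are known to divide as the tissue grows.

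Library totals ran from 6760510 to 10834744 counts, 18245 to 18942 genes had at least 1 count, and 1 count was worth 0.0923 to 0.148 CPM (counts scaled to a common library size). Mitochondrial genes took 28.8% to 30.2% of counts in WT and 34.3% to 40.4% in Apert libraries. Across 13192 tested genes the log2 fold change fell with GC content (Spearman rho -0.41, a description over genes of the same 6 libraries). The fold changes are therefore also given after a correction of each library for GC content. Cartilage markers were abundant in every library, with summed levels of 30053 to 40744 CPM in WT and 30414 to 33203 CPM in Apert. Of 11 tested cartilage markers, 9 had lower values in Apert, against 6515 of all 13333 tested genes, and 0 were called. Their median log2 fold change was -0.27, and -0.03 after GC correction. Of 11 tested perichondrium and fibrous tissue markers, 2 were called higher in Apert (Col3a1 and Ogn), or 18.2%, against 0.398% of all tested genes. The summed level of all 12 listed markers was 2312 to 2673 CPM in WT and 3249 to 3539 CPM in Apert. Skeletal muscle markers summed to 21.9 to 31.7 CPM in WT against 33.5 to 39.1 CPM in Apert libraries, with Myod1 and Myog at 0 counts. Only 2 of the 8 muscle markers had enough counts to test, and their log2 fold changes were -0.22 and 0.51. Schwann and olfactory glia markers summed to 364 to 434 CPM in WT against 276 to 328 CPM in Apert libraries, with Foxd3 at 0. The fibrous, muscle and glia sums did not overlap between groups, and no muscle or glia marker was called. Erythroid sums (88.7 to 152 CPM in WT, 123 to 144 CPM in Apert) and endothelial sums (17.9 to 33.9 and 26.0 to 30.8 CPM) overlapped. The part of GC content, mitochondrial share and RNA of other tissues in the results below was not tested. Epithelial markers summed to at most 3.40 CPM, with Cdh1 and Krt14 at 0 counts, neuronal markers to at most 12.5 CPM, with Neurod1 at 0, and macrophage and leukocyte markers to at most 14.7 CPM.

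Promoter letters that the choice of genes did not use are shown first. Some of them differ in frequency between the replication genes and the mitotic genes used as neighbours below. RefSeq promoter windows of 300 bases on GRCm38.p6 (250 before and 50 after a transcription start) were found for 36 of the 44 genes. They were searched on both strands for 4 words that E2F factors bind (TTTCCCGC, TTTCGCGC, TTTGCCGC and TTTGGCGC), for the CHR core TTTGAA and for CCAAT, the word bound by NF-Y. The word TTTGGCGC and the reverse complement of TTTCGCGC can overlap, and do so in Mcm5 and Mcm6. An E2F word was present for 14 of 36 replication genes (38.9%), 3 of 38 mitotic genes (7.9%), 4.8% of 9653 tested genes with a window and 2.6% of all 27025 genes of the table. TTTGAA was present for 5 of 36 replication genes (13.9%), 28 of 38 mitotic genes (73.7%), 14.1% of tested genes and 20.2% of all genes. CCAAT was present for 23 of 36 replication genes (63.9%), 29 of 38 mitotic genes (76.3%), 43.3% of tested genes and 41.1% of all genes. By complex, an E2F word was found for 4 of 5 MCM2-7 genes, for both helicase loaders, for 2 of 6 origin recognition complex genes and for 0 of 4 nucleotide supply genes with a window. A match is a description of letters, not of a bound site. The gene lists and the words were chosen with earlier results of these data known.

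**Figure D1:**
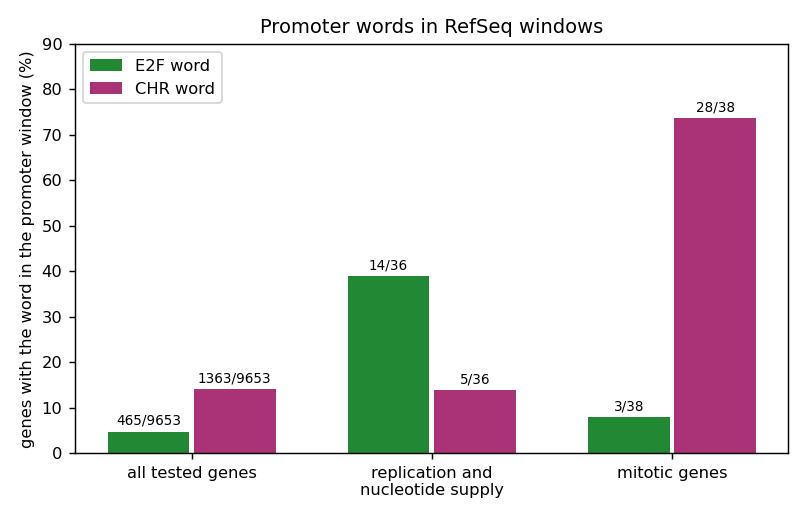
Share of genes (percent, vertical axis) whose RefSeq promoter window holds an E2F word (green) or the CHR word TTTGAA (magenta), for all tested genes, the replication and nucleotide supply genes and the mitotic genes, with counts above the bars. The E2F word was present for 14 of 36 replication genes and 3 of 38 mitotic genes, and the CHR word for 5 of 36 and 28 of 38.

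The stretches below are those of replication genes that hold an E2F word (capitals, either strand) before the start site and lie outside every exon of the count files. For contrast, 2 mitotic promoters follow with TTTGAA or its reverse complement in capitals. All are printed 5′ to 3′ on the strand of the gene. They lie at chr11:98907993-98908052 (Cdc6, plus strand), chr8:75109336-75109395 (Mcm5, plus), chr1:128359725-128359835 (Mcm6, minus), chr8:95633498-95633557 (Gins3, plus), chrX:93632254-93632313 (Pola1, minus), chr7:135716452-135716515 (Mki67, minus) and chr2:129297213-129297272 (Ckap2l, minus). Mcm6 carries 3 words, of which 2 overlap, and Mcm5 carries 2 that overlap.
Cdc6: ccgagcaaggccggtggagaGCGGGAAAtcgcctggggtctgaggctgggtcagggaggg
Mcm5: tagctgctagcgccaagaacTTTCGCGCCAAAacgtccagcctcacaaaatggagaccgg
Mcm6: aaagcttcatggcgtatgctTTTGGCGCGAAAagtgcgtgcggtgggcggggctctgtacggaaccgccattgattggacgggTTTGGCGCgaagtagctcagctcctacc
Gins3: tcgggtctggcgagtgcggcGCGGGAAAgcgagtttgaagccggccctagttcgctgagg
Pola1: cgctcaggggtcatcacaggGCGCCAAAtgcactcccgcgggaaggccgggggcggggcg
Mki67: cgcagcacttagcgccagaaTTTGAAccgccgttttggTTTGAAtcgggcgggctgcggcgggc
Ckap2l: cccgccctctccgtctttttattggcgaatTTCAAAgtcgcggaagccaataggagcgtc

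No replication gene passed the test across all genes, and most of the set had higher mean levels in Apert than in WT cartilage. Of the 43 genes with enough counts to test, 0 passed edgeR's quasi-likelihood F test at a Benjamini-Hochberg adjusted p of 0.05, against 0.45% of all 13333 tested genes (0.398% higher and 0.0525% lower). The smallest adjusted p in edgeR was 0.152, for Pola1, and DESeq2 called this gene alone, against 1.21% of all genes called higher by DESeq2. In edgeR the set also had 0 calls without an expression filter, with the replicate number as a block and without Apert replicate 1, where 0.665%, 0.96% and 0.859% of all genes were called higher. At an unadjusted edgeR p under 0.05, 12 genes were higher in Apert and 0 lower (27.9% higher, against 6.35% higher and 5.01% lower among all genes). For 11 genes every Apert library lay above every WT library, and for 0 the reverse held, against 8.92% and 7.7% of all genes. These 11 were Orc1, Orc2, Orc3, Orc6, Gmnn, Gins4, Pola1, Pola2, Pole, Rrm1 and Tyms. The median log2 fold change (Apert minus WT) was 0.33, against 0.01 over all tested genes, and 35 of 43 values were positive. After the GC correction the median was 0.30. With that correction 9 genes were higher and 0 lower at an unadjusted edgeR p under 0.05 (20.9% higher, against 4.46% of all genes). In bulk tissue a difference in the number of dividing cells and a difference in RNA per cell cannot be told apart.

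The summed level of the tested genes was 1253, 1540 and 1441 CPM in WT replicates 1 to 3, and 1778, 1689 and 1680 CPM in Apert replicates 1 to 3. All 3 Apert libraries were above all 3 WT libraries, and WT replicate 1 was the lowest. WT replicate 1 was the lowest WT library for 29 of the 43 genes (67.4%), against 33.2% of all tested genes. Of the 6 genes of the origin recognition complex it was the lowest WT library for 1. Without it the median log2 fold change was 0.19 and 5 genes were higher at an unadjusted edgeR p under 0.05 (11.6%, against 4.62% of all genes). Without Apert replicate 1, the median was 0.33, 7 genes were higher (16.3%, against 7.0% of all genes) and 1, Mcm2, was lower. CPM values here rest on library sizes adjusted by the TMM method of edgeR. With unscaled totals the median of all genes moved to -0.14 and that of the replication genes to 0.18, which is 0.32 above all genes. With those totals 4 genes of the set were higher at an unadjusted edgeR p under 0.05 (9.30%, against 2.66% of all genes). In the other direction 1 gene of the set was lower, against 1480 of all 13333 tested genes.

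**Figure D2:**
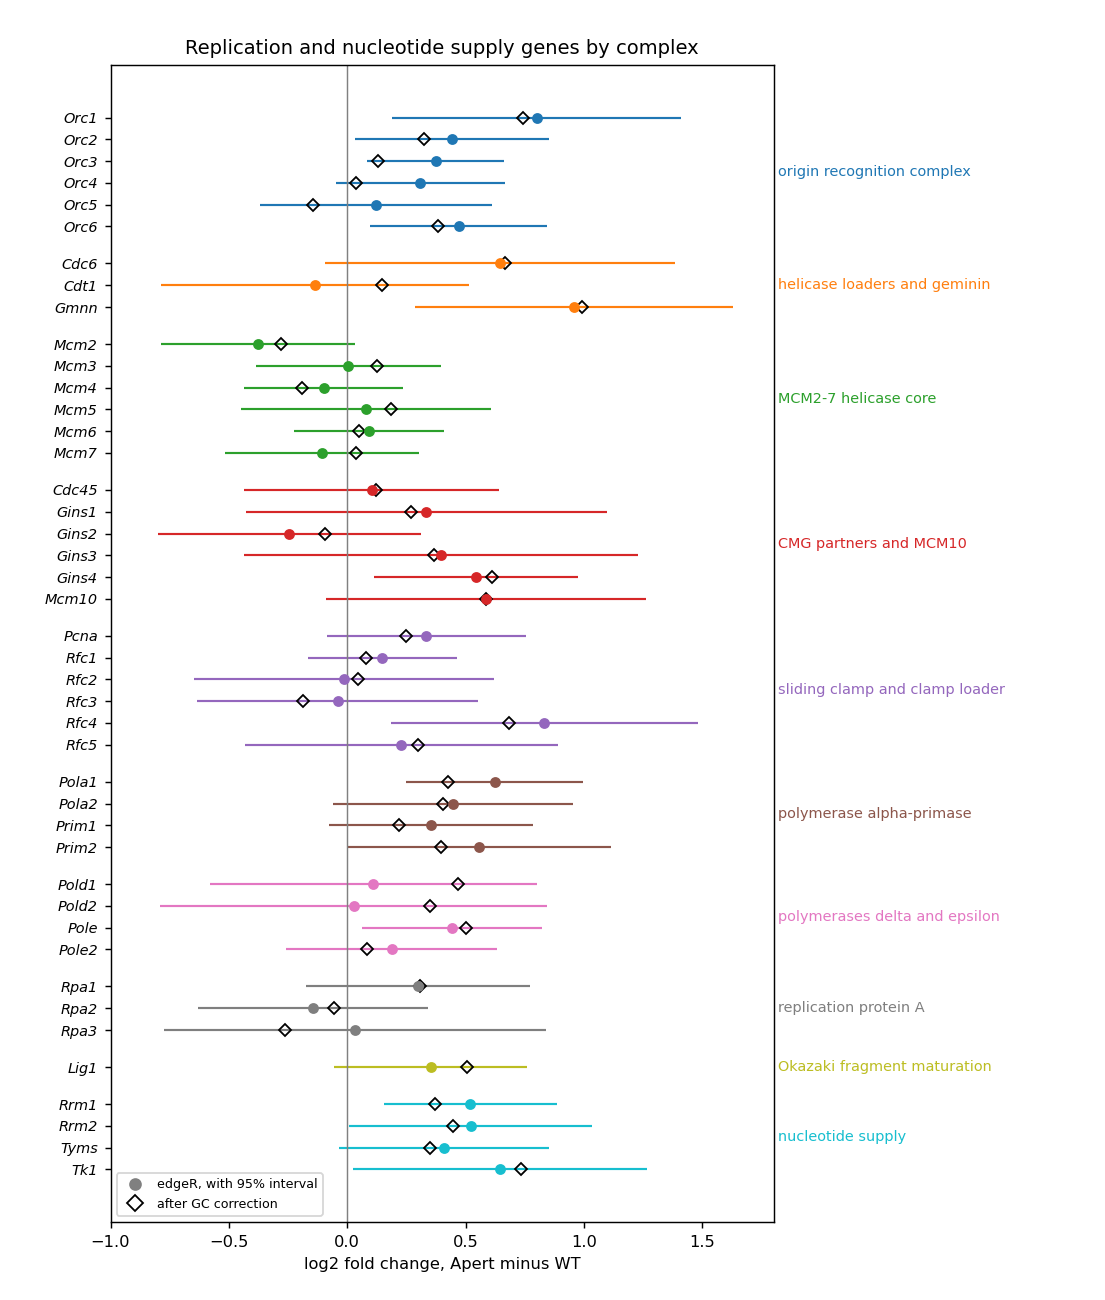
Log2 fold change (Apert minus WT, horizontal axis) of the 43 tested genes by complex, as edgeR values with 95% intervals (filled points and lines, n = 3 per group) and after GC correction (open diamonds). Values of MCM2-7 lie around 0, between -0.38 and 0.09, whereas those of polymerase alpha-primase and nucleotide supply lie between 0.35 and 0.65.

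The origin recognition complex, the 6-subunit ATPase that marks origins, had positive values for all 6 genes (0.12 to 0.80, median 0.41). Orc1, whose protein level varies through the cell cycle (chr4:108579423-108614833, plus strand, mm10), was at 6.59, 9.16 and 8.55 CPM in WT and at 12.0, 18.9 and 11.3 CPM in Apert. Every Apert library was higher, a 1.74-fold difference (log2 0.80, SE 0.29, edgeR adjusted p = 0.292), and the GC-corrected value was 0.74. Orc3 (chr4:34570796-34614944, minus strand) was at 177, 147 and 182 CPM in WT and at 221, 228 and 207 CPM in Apert. It had the highest mean level per length of the set, though not separable from that of Pcna. The groups did not overlap, but the log2 difference was 0.37 and shrank to 0.13 after GC correction. Orc2 and Orc6 also did not overlap (log2 0.44 and 0.47), while Orc4 and Orc5 did. The median of the complex was 0.23 after GC correction, where Orc5 turned to -0.14. Orc3 and Orc4 had the highest CPM of the complex, and a GC content of 38.6% and 36.8%, against a median of 41.5%. The log2 difference of Orc4 was 0.31, and 0.04 after GC correction. The summed level of the complex, not corrected for GC content, was 302 to 371 CPM in WT and 402 to 476 CPM in Apert, with no overlap. Of its genes, 4 share exonic bases with another gene, and fragments counted without regard to strand cannot be assigned there: the shares were 10.8% for Orc1, 12.0% for Orc2, 7.8% for Orc4 and 12.5% for Orc5.

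The loaders and their inhibitor had 2 positive values and 1 negative value, and none of the 3 was called. Gmnn encodes geminin, which binds CDT1 and prevents a second licensing, and lies at chr13:24751845-24761923 (minus strand). It was at 5.98, 4.34 and 4.76 CPM in WT and at 11, 8.44 and 9.88 CPM in Apert. This was the largest fold difference of the set, 1.94-fold (log2 0.96, 95% interval 0.29 to 1.63, edgeR adjusted p = 0.24), and it was 0.99 after GC correction. Cdt1, which brings the helicase to the origin, was at 10.1, 14.4 and 10.4 CPM in WT and at 15.3, 7.35 and 8.75 CPM in Apert. Its groups overlapped fully (log2 -0.14, 95% interval -0.79 to 0.51, and 0.15 after GC correction). Cdc6, the ATPase that works with CDT1, was at 3.64, 10.1 and 10.7 CPM in WT and at 12.9, 10.2 and 15.1 CPM in Apert. Its groups overlapped between 10.2 and 10.7 CPM, and the log2 difference of 0.65 (edgeR adjusted p = 0.515) was 0.29 without WT replicate 1.

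The MCM2-7 helicase core had values on both sides of 0. Its 6 genes had log2 values between -0.38 and 0.09 with a median of -0.05 (0.04 after GC correction), 3 positive and 3 negative. None of the 6 had an unadjusted edgeR p under 0.05, and all 6 intervals lay within -0.79 to 0.61. Mcm2 (chr6:88883475-88898780, minus strand) was at 43.2, 51.4 and 50.5 CPM in WT and at 47.5, 32.8 and 30.9 CPM in Apert. Apert replicates 2 and 3 were below all WT libraries and Apert replicate 1 was within their range (log2 -0.38, SE 0.20, edgeR adjusted p = 0.493). Without Apert replicate 1 the log2 difference of Mcm2 was -0.63 (edgeR adjusted p = 0.111), the lowest of the values of -0.63 to -0.27 with 1 library left out. Mcm4 was at 66.0, 62.4 and 61.0 CPM in WT and at 63.8, 60.3 and 52.5 CPM in Apert, a log2 difference of -0.10. Mcm6 was at 71.9, 77.2 and 77.8 CPM in WT and at 79.3, 88.6 and 74.1 CPM in Apert, with an interval of -0.22 to 0.41. Those 3 subunits overlapped between groups, as did Mcm3 (0.00), Mcm5 (0.08) and Mcm7 (-0.11). Of the exonic bases of Mcm7, 12.6% are shared with Ap4m1, Cops6 and microRNA genes. The summed level of MCM2-7 was 275, 317 and 276 CPM in WT and 299, 282 and 254 CPM in Apert, so the groups overlapped. The median stayed between -0.11 and 0.06 when any 1 library was left out.

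**Figure D3:**
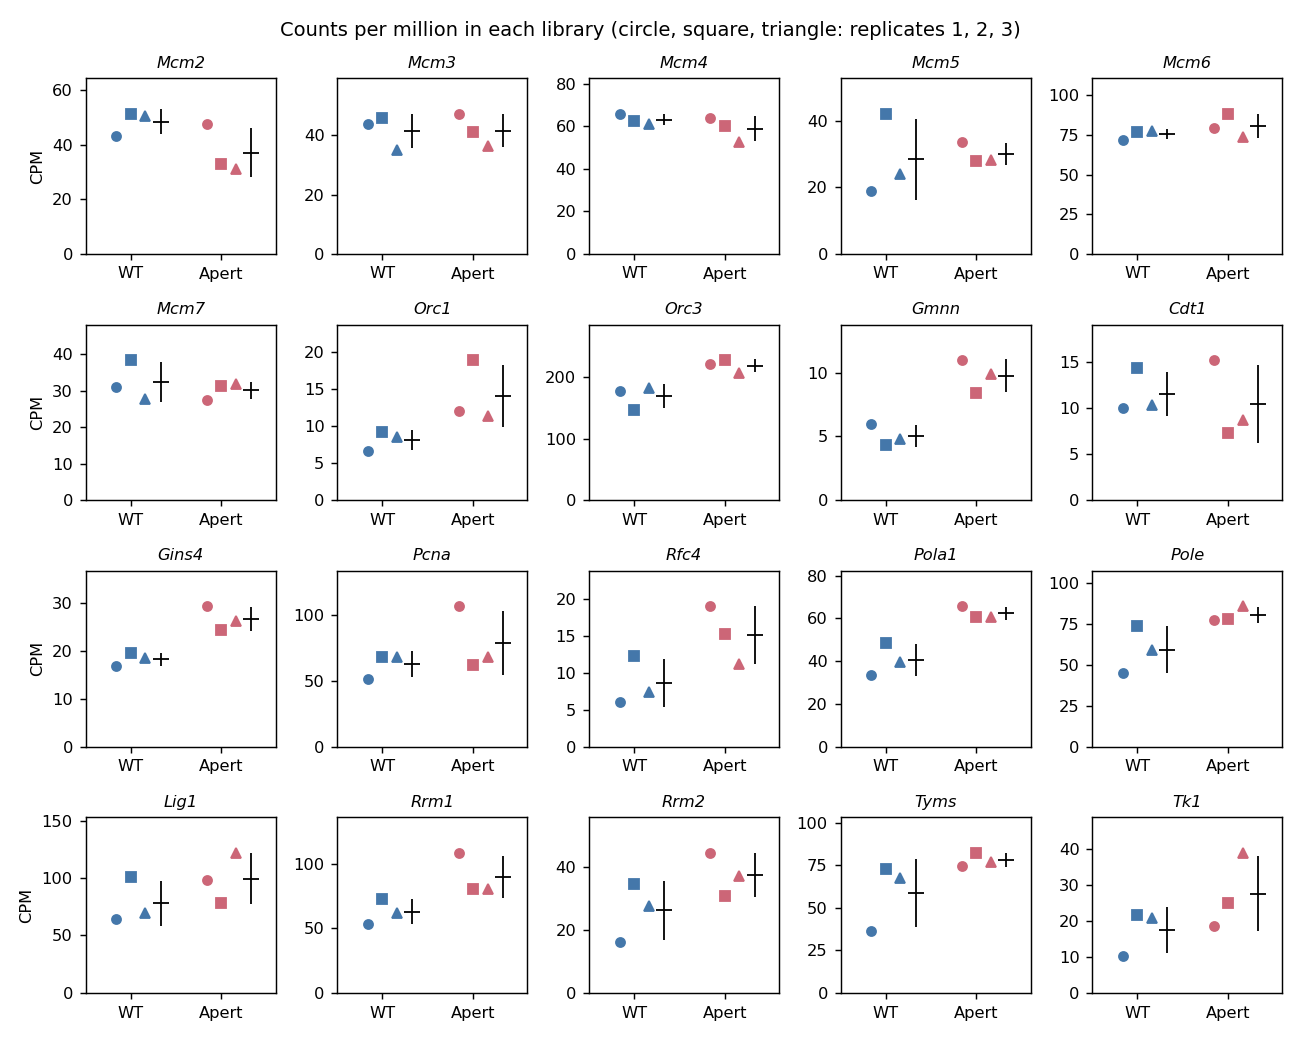
CPM (vertical axes, from 0) of 20 genes in each of the 6 libraries, WT in blue and Apert in red, with replicate 1 as circle, 2 as square and 3 as triangle, and the mean with SD (n = 3) in black. The MCM panels overlap between groups, whereas every Apert point lies above every WT point for Orc1, Orc3, Gmnn, Gins4, Pola1, Pole, Rrm1 and Tyms.

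Of the partners that turn MCM2-7 into the active CMG helicase, 5 of 6 had positive values (median 0.37, or 0.19 without WT replicate 1). Gins4, a subunit of the GINS ring, was at 16.8, 19.5 and 18.6 CPM in WT and at 29.3, 24.4 and 26.2 CPM in Apert. The groups did not overlap, the difference was 1.46-fold (log2 0.54, SE 0.21, edgeR adjusted p = 0.314) and the GC-corrected value was 0.61. Mcm10, which helps the loaded helicase start, was at 5.11, 11.8 and 10.8 CPM in WT and at 11.2, 17.8 and 12.5 CPM in Apert. Its groups overlapped through Apert replicate 1, and WT replicate 1 was the lowest library (log2 0.59, SE 0.32). The other GINS genes and Cdc45 ranged from -0.24 (Gins2) to 0.40 (Gins3), each with an interval that includes 0. Gins2 shares 67.3% of its exonic bases with Gse1, so its counts are uncertain.

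The sliding clamp and its loader had a median of 0.19, with 4 of 6 values positive. Pcna, the clamp that holds polymerases on DNA, was at 51.8, 68.5 and 68.5 CPM in WT and at 107, 61.8 and 68.5 CPM in Apert. Apert replicate 1 was the highest library and replicate 3 was level with the 2 highest WT libraries. Apert replicate 2 was within the WT range. The log2 difference of Pcna was 0.33 (edgeR adjusted p = 0.555), and 0.02 without Apert replicate 1. Rfc4, a small subunit of the clamp loader RFC, was at 6.07, 12.2 and 7.36 CPM in WT and at 19.0, 15.2 and 11.2 CPM in Apert. It had a log2 difference of 0.83 (SE 0.31, edgeR adjusted p = 0.303) although Apert replicate 3 lay below WT replicate 2. It shares 12.6% of its exonic bases with Eif4a2. The other loader subunits, Rfc1, Rfc2, Rfc3 and Rfc5, ranged from -0.04 to 0.23.

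Polymerase alpha-primase, which lays down the RNA-DNA primers, had positive values for all 4 genes (0.35 to 0.62, median 0.50, and 0.40 after GC correction). Pola1, its catalytic DNA polymerase subunit (chrX:93304767-93632155, minus strand), was at 33.5, 48.3 and 39.6 CPM in WT and at 65.6, 60.4 and 60.8 CPM in Apert. All Apert libraries were above all WT libraries. The difference was 1.54-fold (log2 0.62, 95% interval 0.25 to 1.0, edgeR adjusted p = 0.152), and 0.43 after GC correction. DESeq2 gave 0.61 and a call at 0.05. Leaving out any 1 library gave log2 values of 0.50 to 0.77 and edgeR adjusted p of 0.144 to 0.497. Prim1, the primase catalytic subunit, was at 30.3, 51.2 and 40.2 CPM in WT and at 47.0, 47.0 and 61.7 CPM in Apert, overlapping (log2 0.35). Prim2, the large primase subunit, was at 10.1, 13.9 and 11 CPM in WT and at 16.3, 13.1 and 22.4 CPM in Apert, also overlapping (log2 0.56). Pola2, the regulatory subunit, did not overlap (log2 0.45). The summed level was 84.8, 125 and 103 CPM in WT and 146, 137 and 159 CPM in Apert.

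Of the 4 elongating polymerase genes, all had positive values (median 0.15, and 0.41 after GC correction) and 1, Pole, had groups that did not overlap. Pole, the catalytic subunit of the leading-strand polymerase epsilon, was at 44.5, 73.3 and 59.0 CPM in WT and at 77.0, 77.8 and 85.6 CPM in Apert. The groups did not overlap (log2 0.44, SE 0.18, edgeR adjusted p = 0.356), and the value was 0.50 after GC correction and 0.28 to 0.63 with 1 library left out. Its partner Pole2 was at 22.3, 19.6 and 29.0 CPM in WT and at 29.5, 27.4 and 23.5 CPM in Apert, overlapping (log2 0.19). The lagging-strand genes Pold1 and Pold2 had values of 0.11 and 0.03, which became 0.47 and 0.35 after GC correction. At 61.0% and 58.7%, their transcripts have a higher GC content than the median of 47.3% of the set.

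Replication protein A, the trimer that coats single-stranded DNA, had a median of 0.03. Rpa1, the large subunit, was at 16.9, 27.8 and 18.4 CPM in WT and at 27.5, 24.4 and 25.6 CPM in Apert, overlapping (log2 0.30). Rpa2, the middle subunit, was at 26.3, 31.9 and 19.4 CPM in WT and at 27.9, 18.6 and 23.5 CPM in Apert, overlapping in the other direction (log2 -0.15). Rpa3 was at 0.03, and the median of the 3 genes ran from -0.33 to 0.29 with 1 library left out. Lig1, the ligase that seals Okazaki fragments, was at 64.0, 101 and 69.4 CPM in WT and at 98.5, 78.0 and 122 CPM in Apert. WT replicate 2 exceeded 2 Apert libraries (log2 0.35, edgeR adjusted p = 0.515, and 0.51 after GC correction). Fen1, the flap endonuclease that trims the fragments, could not be tested. It had 0, 1 and 0 counts in WT and 3, 4 and 0 counts in Apert. Of its exonic bases 84.2% are shared with Gm10143 and Tmem258, and fragments there cannot be assigned to 1 gene, so its counts are not a measure of its level.

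Nucleotide supply had positive values for all 4 enzymes (0.41 to 0.65, median 0.52, and 0.41 after GC correction). Rrm1, the large subunit of ribonucleotide reductase that makes deoxynucleotides (chr7:102441695-102469771, plus strand), was at 53.8, 73.1 and 61.9 CPM in WT and at 109, 80.8 and 80.4 CPM in Apert. All Apert libraries were above all WT libraries, a 1.43-fold difference (log2 0.52, SE 0.17, edgeR adjusted p = 0.24), and 0.37 after GC correction. Rrm2, its S phase subunit, had the same log2 difference of 0.52 but overlapped, with 16.3 to 34.7 CPM over WT against 30.6 to 44.5 CPM over Apert libraries. Tyms, which makes thymidylate, ranged over 36.1 to 72.6 CPM in WT against 74.5 to 82.5 CPM in Apert, without overlap. Tk1, which salvages thymidine, was at 10.2, 21.7 and 20.8 CPM in WT and at 18.6, 25.0 and 39.1 CPM in Apert, overlapping through Apert replicate 1 (log2 0.65, SE 0.30). The summed level was 116, 202 and 178 CPM in WT and 246, 219 and 233 CPM in Apert. WT replicate 1 was the lowest library for all 4, and without it the median was 0.32.

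**Figure D4:**
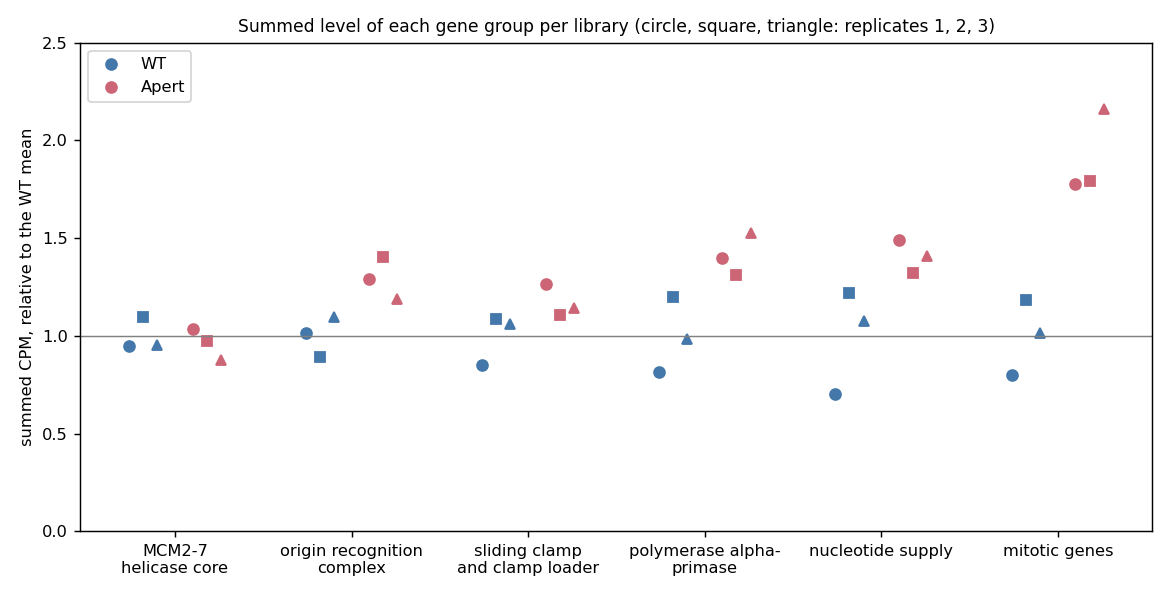
Summed CPM of 5 complexes and of the mitotic genes in each library, divided by the WT mean (vertical axis, from 0), with WT in blue, Apert in red and replicates 1 to 3 as circle, square and triangle. MCM2-7 overlaps between groups around 1, the clamp and loader group lies just above WT, and the mitotic sum of every Apert library exceeds every WT library by the widest margin plotted.

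Levels per kilobase of exon compare genes with each other. Over all 6 libraries the tested replication genes had mean levels of 1.44 to 31.8 CPM per kilobase (median 7.06, against 4.15 over all tested genes). Orc3, Pcna, Mcm6, Orc6 and Lig1 led, and Rfc5, Cdc6, Mcm10 and Pold1 closed the order above Fen1. Of the 43 neighbouring pairs in that order only Pold1 and Fen1 were apart by more than their SDs together, so neighbours are not separable. Within MCM2-7, whose subunits form a ring with 1 copy of each, WT levels were 26.1 ± 1.12 CPM per kilobase for Mcm6 and 17.6 ± 0.708 for Mcm4 (SD, n = 3). They were 14.3 ± 1.34 for Mcm2, 13.9 ± 1.94 for Mcm3, 8.30 ± 3.58 for Mcm5 and 7.32 ± 1.24 for Mcm7. The catalytic subunit of polymerase alpha was at 4.59 ± 0.846 CPM per kilobase in WT and 7.07 ± 0.331 in Apert, and that of polymerase delta at 1.38 ± 0.253 and 1.5 ± 0.29. Levels per kilobase fell with GC content among the replication genes (Spearman rho -0.33, n = 43) and among all tested genes (-0.25, n = 13192), as a description over genes of the same libraries.

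**Figure D5:**
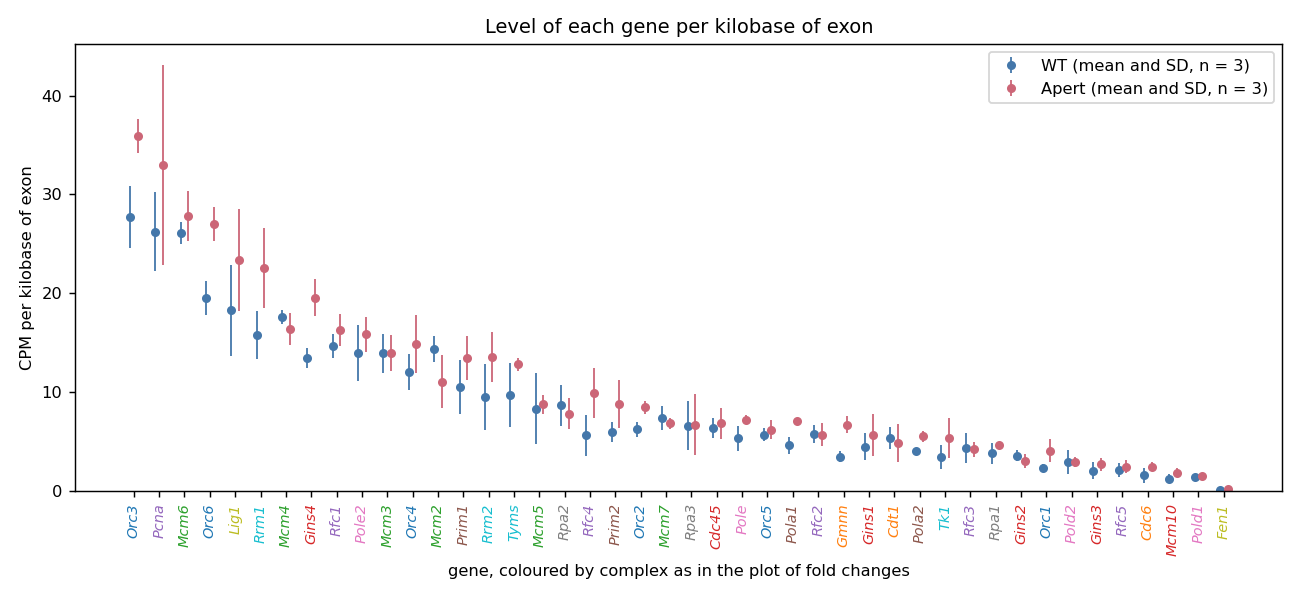
Mean CPM per kilobase of exon with SD (vertical axis, from 0, n = 3 per group) of the 44 genes in order of their mean over the 6 libraries, WT in blue and Apert in red, with gene names coloured by complex. The order runs from Orc3, Pcna and Mcm6 to Pold1 and Fen1, and the spread of neighbours overlaps along it.

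Other replication genes, from lists of licensing, fork and nucleotide genes, had a smaller median. Of 62 tested, 0 passed edgeR's test at an adjusted p of 0.05, against 0.45% of all genes. At an unadjusted edgeR p under 0.05, 16 were higher and 1 lower, against 6.35% and 5.01% of all genes, and the median log2 fold change was 0.21. The median was 0.45 for 12 licensing and firing genes, 0.29 for 26 fork and polymerase accessory genes and 0.03 for 24 further nucleotide genes. Tipin, a fork protection factor, averaged 22.2 ± 1.97 CPM over the WT libraries against 39.2 ± 4.07 CPM over the Apert libraries (SD, n = 3; log2 0.82, edgeR adjusted p = 0.0708). Ticrr, which helps load CDC45, was at 45.3 ± 10.1 and 75 ± 1.76 CPM (log2 0.73, edgeR adjusted p = 0.0876). Dbf4, the activator of the CDC7 kinase that fires origins, had a log2 value of 0.73 (edgeR adjusted p = 0.153). Topbp1, Rif1, Slbp, Atad5 and Wdhd1 had values of 0.39 to 0.62. Cad, which starts pyrimidine synthesis, averaged 32.5 ± 6.92 CPM over WT against 20.1 ± 5.94 CPM over Apert libraries (log2 -0.68, edgeR adjusted p = 0.256). Paics and Shmt2 were at 0.30 and -0.52. Among 20 genes that control S phase entry, 0 were called by edgeR, 5 were higher and 0 lower at an unadjusted p under 0.05 (against the same shares of all genes), and the median was 0.24. The smallest p among them were those of the repressors E2f8 (0.74, edgeR adjusted p = 0.138) and E2f7 (0.85, 0.144), of the cyclin gene Ccna2 (0.71, 0.145) and of the MuvB subunit Lin9 (0.72, 0.253).

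Mitotic genes, the neighbours in the cell cycle, rose in Apert for 18 of 45. All 45 had positive values, with a median log2 fold change of 0.87 (0.75 after GC correction). At an adjusted p of 0.05 edgeR called these 18 (40.0%), against 0.398% of all genes. The mitotic list was chosen with earlier results of these data known, so these shares are a description. The 4 with the smallest p were Ckap2l (1.30), Smc4 (0.97), Sgo1 (1.24) and Cenpe (1.12), each at an edgeR adjusted p of 0.00453. The count of 18 was 6 without WT replicate 1, 11 without WT replicate 2, 0 without WT replicate 3, 23 without Apert replicate 1, 2 without Apert replicate 2 and 4 without Apert replicate 3. It was 8 with unscaled totals, 3 after GC correction, 25 with the replicate block, 25 by DESeq2 and 26 without an expression filter. The ratio of the mitotic sum to the MCM2-7 sum was 7.10, 9.11 and 8.95 in WT and 14.5, 15.5 and 20.8 in Apert. Within the replication set, the ratio of the polymerase alpha-primase sum to the MCM2-7 sum was 0.309, 0.394 and 0.372 in WT and 0.488, 0.484 and 0.626 in Apert. The ratio of the nucleotide supply sum to the MCM2-7 sum was 0.424, 0.636 and 0.643 in WT and 0.824, 0.777 and 0.920 in Apert. These ratios do not depend on how libraries are scaled, and none of them overlapped between groups. They were not corrected for GC content. Its median was 51.8% for MCM2-7, 43.5% for polymerase alpha-primase, 46.35% for nucleotide supply and 46.6% for mitotic genes. After GC correction the median log2 fold changes of these 4 groups were 0.04, 0.40, 0.41 and 0.75. The pairs of gene groups were chosen after the values were seen, and the differences were not tested. Among the genes with a promoter window, the median log2 fold change was 0.15 for the 14 with an E2F word and 0.33 for the 21 tested genes without one, a difference that was not tested.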

How the data were processed

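RNA of 6 mouse cartilage samples (3 WT, 3 Apert) was amplified from nanogram amounts before sequencing, per the labels' protocols, which can distort counts by GC content. The deposited files hold whole-number counts of fragments per gene. The authors made them with featureCounts 1.4.4 over exons without regard to strand, per the file headers, and STAR 2.5.2b, cutadapt and build mm10 are named in the submitters' processing notes. Coordinates are those of the files.

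Genotypes were compared with edgeR 4.0.16 under R 4.3.3. Scaling was by the trimmed mean of M values (TMM), the filter filterByExpr left 13333 genes, and the quasi-likelihood F test was adjusted by Benjamini-Hochberg over all of them at 0.05. CPM uses TMM-scaled totals and intervals are at 95%. The scripts were tested on simulated data. Genes without a symbol (1317, at most 0.205% of counts) stayed in the totals. Alternatives were other scalings and filters, corrections for GC content and length (mgcv 1.9.3), the replicate number as a block, each library left out, removal of mitochondrial genes, DESeq2 1.42.0, limma-voom (limma 3.58.1) and a threshold of 0.1.

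Members, lists and promoter words were chosen with earlier results of these data known. Values in every library are given for called members, for the 2 of each complex with the smallest p and for the most abundant per kilobase. Up to 4 genes of each other list are named by smallest p. Other genes named with values, such as Cdt1, Orc2, Pola2, Rrm2 and Tyms, complete their complexes. No molecular identifiers were described, so depth limits cover counting error only.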

Additional observations from a re-analysis of the deposited data

How the results depend on the processing

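In edgeR 60 genes were called. The count was 247 without an expression filter, 5 after GC correction, 223 by DESeq2, 129 at a threshold of 0.1, and 0 (without WT replicate 3) to 229 (without Apert replicate 1) with 1 library left out. Without WT replicate 1 it was 15, without WT replicate 2 it was 23, without Apert replicate 2 it was 2 and without Apert replicate 3 it was 11. Unscaled library totals gave 17 higher and 24 lower calls, against 53 and 7. No replication gene of the set was called under any alternative other than DESeq2, which called 1, Pola1. Of the other replication genes, 0 became 2 without a filter and 2 at a threshold of 0.1 (Ticrr and Tipin both times), 4 by DESeq2 (Dbf4, Slbp, Ticrr and Tipin), and 0 to 1 with 1 library left out (Cad, without Apert replicate 1). The median log2 fold change of the set moved to 0.18 with unscaled totals and ran from 0.19 to 0.40 with 1 library left out. The causes were not tested.

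The labels do not say what equal replicate numbers mark, so the numbers were not taken as pairs. Deviations of same-numbered libraries correlated at 0.194, 0.0196 and 0.086. WT replicates 1 and 3 correlated best with the Apert library of the same number, and WT replicate 2 with Apert replicate 3 (0.0418). The deviations were taken from the mean of each group of 3, so these correlations cannot decide whether libraries were paired. With the replicate block 172 genes were called, 0 of the set and 2 other replication genes (Ticrr and Tipin), and the median was 0.30. With the block and the GC correction together it was 78 genes, 0 of the set and 1 other replication gene (Ticrr), and the median was 0.32.

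Of the 43 tested genes, 28 kept one sign in all 18 alternatives and 15 did not, none of the 15 with a size over 0.23 in edgeR. With unscaled totals Orc5 was at -0.030, Mcm3 at -0.15, Mcm5 at -0.069, Mcm6 at -0.060, Cdc45 at -0.046, Rfc1 at -0.0071, Pold1 at -0.047, Pold2 at -0.12 and Rpa3 at -0.12. After GC correction Orc5 was at -0.14, Cdt1 at 0.15, Mcm7 at 0.036, Rfc2 at 0.044 and Rpa3 at -0.26, and with the replicate block as well at -0.14, 0.084, 0.041, 0.034 and -0.32. With the replicate block alone Rfc3 was at 0.012 and Rpa3 at -0.014. Mcm3 was at -0.0049 with DESeq2 size factors, -0.022 with upper quartile scaling, -0.023 without a filter, -0.0036 without mitochondrial genes and -0.0045 by DESeq2. Pold2 was at -0.00090 with upper quartile scaling and -0.00076 without a filter, Rfc2 at 0.027 after length correction and Rfc3 at 0.041 by limma-voom. With 1 library left out the ranges were -0.014 to 0.19 for Orc5, -0.56 to 0.060 for Cdt1, -0.13 to 0.084 for Mcm3, -0.15 to 0.48 for Mcm5, -0.20 to 0.032 for Mcm7, -0.11 to 0.20 for Cdc45, -0.13 to 0.14 for Rfc2, -0.29 to 0.22 for Rfc3, -0.019 to 0.55 for Rfc5, -0.064 to 0.26 for Pold1, -0.17 to 0.43 for Pold2, -0.33 to 0.032 for Rpa2 and -0.37 to 0.40 for Rpa3. Depth limits genes with few counts: Rpa3 had 24 to 124 counts per library, Pold2 34 to 84, Gmnn 44 to 111 and Fen1 at most 4.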

Other observations

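Ratios within a library do not depend on scaling, and 2 of them, chosen after their values were seen, set subunits or partners against each other. The ratio of Gmnn to Cdt1 in CPM, the licensing inhibitor over its target, was 0.595 in WT replicate 1, 0.302 in replicate 2 and 0.458 in replicate 3, against 0.721, 1.15 and 1.13 in the Apert libraries. Every Apert library was above every WT library. The ratio of Mcm6 to Mcm2, subunits of the same helicase ring, was 1.67, 1.5 and 1.54 in WT and 1.67, 2.70 and 2.39 in Apert, with Apert replicate 1 at the level of WT replicate 1. Neither ratio was tested or corrected for GC content, which was 49.8% for Gmnn, 57.8% for Cdt1, 47.3% for Mcm6 and 51.7% for Mcm2.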
